A study of Mus musculus with 12 samples.

Results

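The genes described are the nonsarcomeric (cytoplasmic) actins Actb and Actg1, the intermediate filament gene Vim, the tubulins Tuba1a, Tubb2a, Tubb2b, Tubb4b and Tubb6, and the β-thymosins Tmsb4x and Tmsb10. They were listed by gene symbol, with earlier results of these data known, and all 10 were found among the 22915 genes of the expression table. RNA was sequenced from primary cardiomyocytes of adult male C57/Bl6 mice aged 12 weeks, cultured in serum-free medium and exposed for 24 h in normoxia to murine LIF (mLIF), murine oncostatin M (mOSM), the chimeric human-like oncostatin M (hlOSM), or an equal volume of PBS as control, with 3 libraries per condition and 12 in all. In mouse cells mLIF acts through the LIF receptor and mOSM through the oncostatin M receptor, while hlOSM, a murine protein with the AB loop of the human one, was made to act through both receptors, so that the design compares each receptor alone with the pair. The cytokine dose is 25 ng/mL in the sample descriptions and lower in the methods of the study, and no source used here says whether the libraries of a condition came from separate cultures or animals. The p-values therefore measure only the spread between these libraries, which may be technical.

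Actin filaments grow from monomers, and β-thymosins hold monomers in a pool from which filaments are built. Microtubules are hollow polymers of α- and β-tubulin dimers, and the several β-tubulin genes, or isotypes, encode closely related proteins that mix in a single microtubule. In the heart the sarcomere is built from the muscle actins Actc1 and Acta1, desmin (Des) is the intermediate filament protein of the myocyte, and vimentin is known as that of fibroblasts, endothelial cells and other mesenchymal cells. Free actin monomers also hold back the transcription factors MRTF-A and MRTF-B, which together with SRF drive many genes of the actin cytoskeleton.

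The values are normalized counts, the authors' read counts per gene scaled between libraries and rounded to whole numbers, and they summed to between 2745748 and 2911891 in a library. They are not read counts, so the depth behind a value is unknown. All 10 genes were among the 13184 that reached 10 normalized counts in 3 or more libraries, and limma compared the conditions over these genes on the scale log2(normalized count + 1). A gene was called raised or lowered at a Benjamini-Hochberg adjusted p under 0.05 (two-sided), and fold changes are on this log2 scale. Same-numbered libraries deviated from their condition means in opposite directions across genes, with a mean r of −0.327, and values from which a replicate effect had been subtracted before deposit would give −0.333 on average with 4 conditions of equal spread. No source used here names such a step, and if it was made, the SEs and p-values printed here are too small. Calls of the 10 genes that were lost when the replicate number was fitted as a block are therefore named beside them, and list counts with the block where they moved by over 1.5 times. The 15 cardiomyocyte markers were all tested and summed to between 55649 and 58192 in the PBS libraries, against 2550 to 2818 for 12 fibroblast, 1618 to 1703 for 12 endothelial, 1953 to 2315 for 10 smooth muscle and pericyte and 376 to 419 for 12 leukocyte and macrophage markers. No marker in the table was at 0 in all 12 libraries. Of 15 leukocyte and macrophage markers listed, 12 were in the table and 7 were tested.

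With PBS, Actb was the most abundant of the 10 genes per length, at 307 ± 8.80 (SD, n = 3) normalized counts per 1000 exonic bases. Tubb4b followed at 158 ± 6.47 (SD, n = 3), Vim at 152 ± 13.3 (SD, n = 3), Tubb6 at 100.9 ± 14.6 (SD, n = 3) and Tmsb4x at 90.2 ± 12.2 (SD, n = 3). Tubb2a stood at 56.9 ± 4.41 (SD, n = 3) and Actg1 at 44.0 ± 0.652 (SD, n = 3), while Tmsb10 stood at 6.79 ± 2.26 (SD, n = 3), Tuba1a at 6.66 ± 2.88 (SD, n = 3) and Tubb2b at 4.21 ± 2.15 (SD, n = 3). The PBS libraries of Tubb4b and Vim overlapped, as did those of Tubb6 and Tmsb4x and those of the 3 lowest genes. All exons and spans are those of mm10.

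How well these levels can be read depends on sequence shared with other genes, because the authors left out reads that aligned to several places or overlapped several genes. In the annotated transcripts, every 75-base window of Vim, Tubb6 and Tmsb4x occurred in no other gene, and so did 98.4% of the windows of Actb. The share was 80.8% for Tmsb10, 70.1% for Tubb4b, 69.8% for Tubb2b, 66.5% for Actg1, 56.8% for Tubb2a and 29.6% for Tuba1a. Tubb2a and Tubb2b, neighbors on chromosome 13, shared 618 windows with each other, and Tuba1a shared 39.9% of its windows with Tuba1c and 34.2% with Tuba1b. Actg1 shared windows with 9 annotated pseudogenes. Counted per 1000 windows found in no other gene, Tubb4b in PBS stood at 226 and Tubb2a at 105, next to Tubb6 at 104, and Tuba1a at 23.5. Values of Tuba1a, Tubb2a, Tubb2b, Tubb4b, Actg1 and Tmsb10 are therefore uncertain in level, and reads of near-identical copies could not be counted for either copy.

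**Figure D1:**
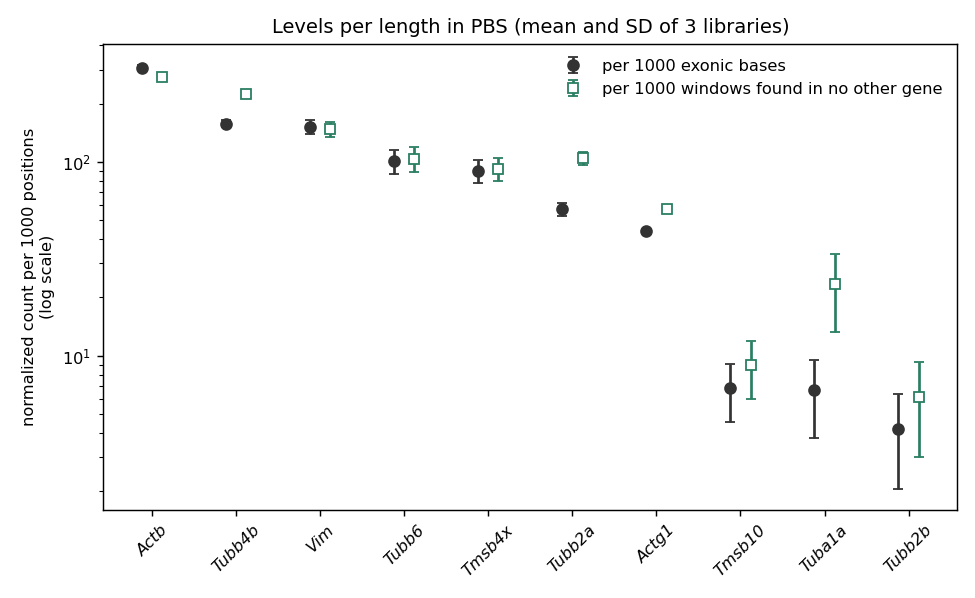
Level of each gene in the PBS libraries on a log axis, as normalized count per 1000 exonic bases (filled circles) and per 1000 of the 75-base windows found in no other annotated gene (open squares), mean with SD of 3 libraries. Actb stands highest on both scales, and Tuba1a differs most between them, at 6.66 and 23.5.

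Of the 10 genes, 7 had a promoter in the RefSeq table of build GRCm38.p6 (mm10), and Actb, Tubb2b and Tubb6 are not among them. The 250 bases before the start site are shown for Actg1, Vim and Tmsb4x, which fell with mOSM, and for Tubb2a, which rose, because the actin genes are known as targets of SRF and because these genes moved in opposite directions. Capitals mark the CArG box (the motif SRF binds), TATAAA and GGGCGG, each searched on both strands. The windows are chr11:120348496-120348745 (minus strand) for Actg1, chr2:13574061-13574310 (plus strand) for Vim, chrX:167209219-167209468 (minus strand) for Tmsb4x and chr13:34078009-34078258 (minus strand) for Tubb2a.
Actg1: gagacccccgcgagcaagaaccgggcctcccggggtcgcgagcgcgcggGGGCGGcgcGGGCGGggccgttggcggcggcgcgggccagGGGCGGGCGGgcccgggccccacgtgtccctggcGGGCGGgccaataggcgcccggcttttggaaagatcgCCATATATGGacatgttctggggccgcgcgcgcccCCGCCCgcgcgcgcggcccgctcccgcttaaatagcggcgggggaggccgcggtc
Vim: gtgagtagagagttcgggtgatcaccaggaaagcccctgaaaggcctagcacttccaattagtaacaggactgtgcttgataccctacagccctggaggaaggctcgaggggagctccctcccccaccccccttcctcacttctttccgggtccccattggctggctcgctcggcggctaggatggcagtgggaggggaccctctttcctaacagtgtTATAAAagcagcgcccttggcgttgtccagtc
Tmsb4x: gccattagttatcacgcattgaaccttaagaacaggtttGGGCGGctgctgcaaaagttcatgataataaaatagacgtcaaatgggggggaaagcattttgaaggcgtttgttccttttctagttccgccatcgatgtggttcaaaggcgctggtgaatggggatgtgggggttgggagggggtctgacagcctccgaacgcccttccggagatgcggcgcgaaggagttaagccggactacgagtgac
Tubb2a: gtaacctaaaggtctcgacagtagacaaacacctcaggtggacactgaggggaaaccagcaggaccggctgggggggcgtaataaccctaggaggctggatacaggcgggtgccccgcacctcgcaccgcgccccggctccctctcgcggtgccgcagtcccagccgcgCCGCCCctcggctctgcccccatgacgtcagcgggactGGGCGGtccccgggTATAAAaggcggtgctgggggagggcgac
A CArG box stood 90 to 81 bases before the start site of Actg1 and in none of the other windows of the 7 genes, and 1.63% of all 32851 promoter windows of 300 bases in the table held it. TATAAA stood 32 to 27 bases before the start of Vim and 29 to 24 before that of Tubb2a, against 13.6% of all promoters, and GGGCGG, in 35.7% of all promoters, occurred 6 times before Actg1, with an overlap of 2 of these matches. The motif TTCNNNGAA, which STAT factors bind, was in 8.30% of all promoters and in no window of the 7 genes, nor was TGANTCA, in 7.81%. A match is a stretch of letters and not a measured binding site.

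**Figure D2:**
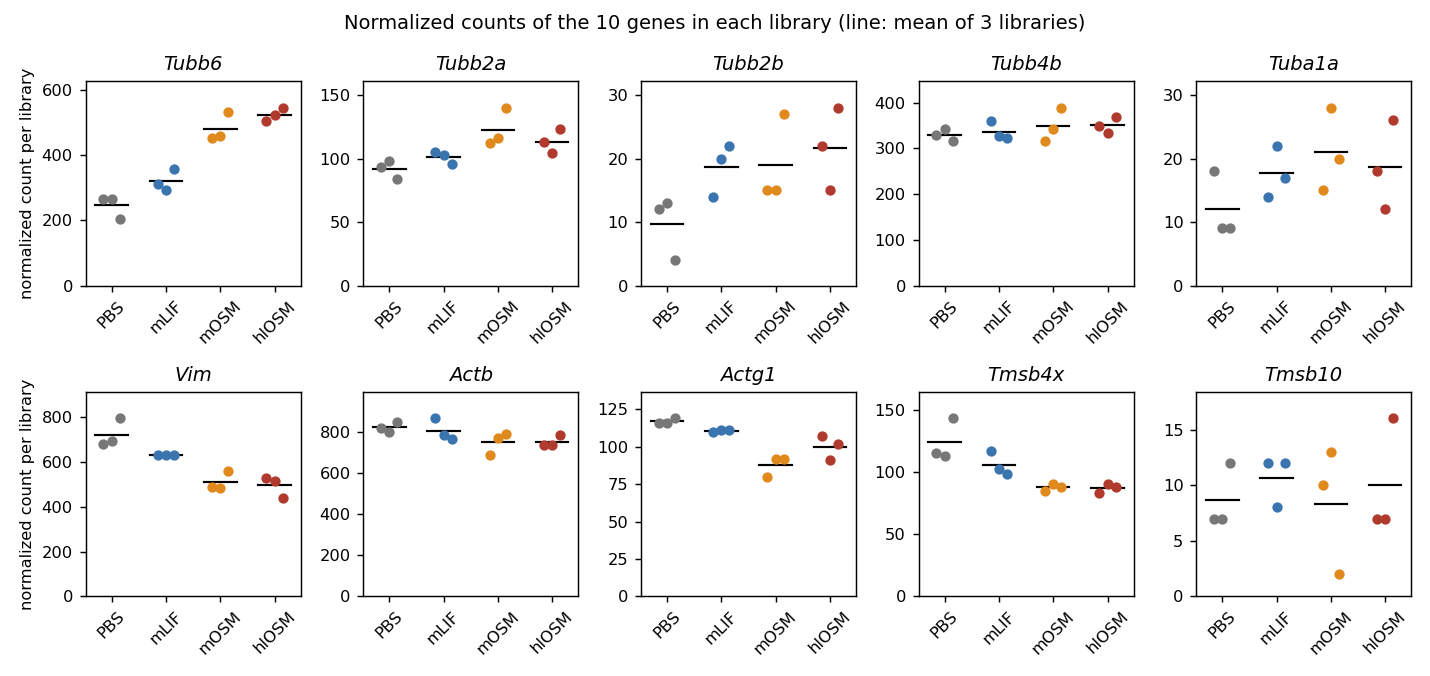
Normalized count of each gene in each of the 12 libraries, with the mean of 3 libraries as a line and every axis starting at 0. Tubb6 libraries stand between 205 and 267 with PBS and between 504 and 545 with hlOSM, while Vim, Actg1 and Tmsb4x stand lower with mOSM than with PBS in all 3 libraries.

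Among the β-tubulins, Tubb6 rose with all 3 cytokines. Tubb6 (chromosome 18, 67390717 to 67402749, plus strand), an isotype known from striated muscle where it is raised during regeneration and disease, was measured at 267, 266 and 205 with PBS and at 312, 294 and 357 with mLIF. It was at 452, 457 and 533 with mOSM and at 504, 523 and 545 with hlOSM. The ranges of PBS, mLIF and either oncostatin M did not overlap, and those of mOSM and hlOSM did. Against PBS, mLIF gave a log2 fold change of 0.39 (SE 0.09, adjusted p = 0.00893), mOSM of 0.97 (SE 0.09, adjusted p = 3.1e-08) and hlOSM of 1.10 (SE 0.09, adjusted p = 3.23e-09), which corresponds to 1.31-, 1.96- and 2.14-fold. With mLIF the call was lost without PBS replicate 3, the lowest of its condition, and without mLIF replicate 3.

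Tubb6 was the only gene of the 10 called with mLIF, where 5.47% of all tested genes were raised and 4.44% were lowered. It also differed between the cytokines: the log2 difference from mLIF was 0.58 (SE 0.09, adjusted p = 9.96e-05) with mOSM and 0.71 (SE 0.09, adjusted p = 6.42e-06) with hlOSM. Between hlOSM and mOSM the difference was 0.13 with a 95% confidence interval from −0.06 to 0.32 (adjusted p = 0.801).

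The closely related pair Tubb2a and Tubb2b, isotypes best known from neurons, also stood higher with oncostatin M. Tubb2a (chromosome 13, 34074274 to 34078007, minus strand) was at 93, 98 and 84 with PBS and 105, 103 and 96 with mLIF. With mOSM the values were 112, 116 and 140, and with hlOSM 113, 104 and 123. Both oncostatin M groups lay above every PBS library and mLIF overlapped PBS. Tubb2a rose with mOSM by a log2 fold change of 0.41 (SE 0.10, adjusted p = 0.00336) and with hlOSM by 0.30 (SE 0.10, adjusted p = 0.0226), the latter call being lost under the replicate block (adjusted p = 0.0511) and without PBS replicate 3, hlOSM replicate 1 or hlOSM replicate 3. With mLIF the value was 0.14 and did not pass (adjusted p = 0.388).

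Tubb2b (chromosome 13, 34126748 to 34130466, minus strand) was low, at 12, 13 and 4 with PBS and 14, 20 and 22 with mLIF. It was at 15, 15 and 27 with mOSM and 22, 15 and 28 with hlOSM. Every cytokine library lay above the PBS libraries, of which replicate 3 stood far below the others. The log2 fold change was 0.99 (SE 0.34, adjusted p = 0.0272) with mOSM and 1.18 (SE 0.34, adjusted p = 0.00773) with hlOSM, and 1.00 with mLIF, which did not pass (adjusted p = 0.0605). Both calls were lost without PBS replicate 3, that of mOSM also without mOSM replicate 3 and that of hlOSM without hlOSM replicate 3, while the mLIF value passed without PBS replicate 1 or PBS replicate 2.

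Tubb4b (chromosome 2, 25222160 to 25224702, minus strand), a widely expressed isotype and with PBS the most abundant tubulin of the 10 genes per length, passed the test in no comparison. It was at 329, 343 and 316 with PBS and 359, 327 and 323 with mLIF. The mOSM libraries gave 316, 343 and 389 and the hlOSM libraries 349, 334 and 369, and all ranges overlapped. The 95% confidence interval of its log2 fold change with hlOSM ran from −0.06 to 0.24. Tubb5, another widely expressed β-tubulin outside the 10 genes, had log2 fold changes between 0.00040 and 0.02 with the 3 cytokines (adjusted p from 0.854 to 0.998).

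The makeup of the β-tubulin mRNA moved with these differences. Over the 6 β-tubulin genes Tubb2a, Tubb2b, Tubb3, Tubb4b, Tubb5 and Tubb6, counted per 1000 exonic bases, Tubb6 held 20.9% ± 1.87 (SD, n = 3) of the summed level with PBS and 25.0% ± 2.32 (SD, n = 3) with mLIF. It held 32.3% ± 0.775 (SD, n = 3) with mOSM and 34.6% ± 0.780 (SD, n = 3) with hlOSM. None of the cytokine groups overlapped PBS. Per window found in no other gene the shares were 17.3%, 20.8%, 27.0% and 29.1%, in the same order. The summed level of the 6 genes was 481 ± 28.6 (SD, n = 3) with PBS and 622 ± 23.9 (SD, n = 3) with hlOSM. An exact permutation test of 3 against 3 libraries cannot reach a two-sided p under 0.1, so these shares are a description.

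**Figure D3:**
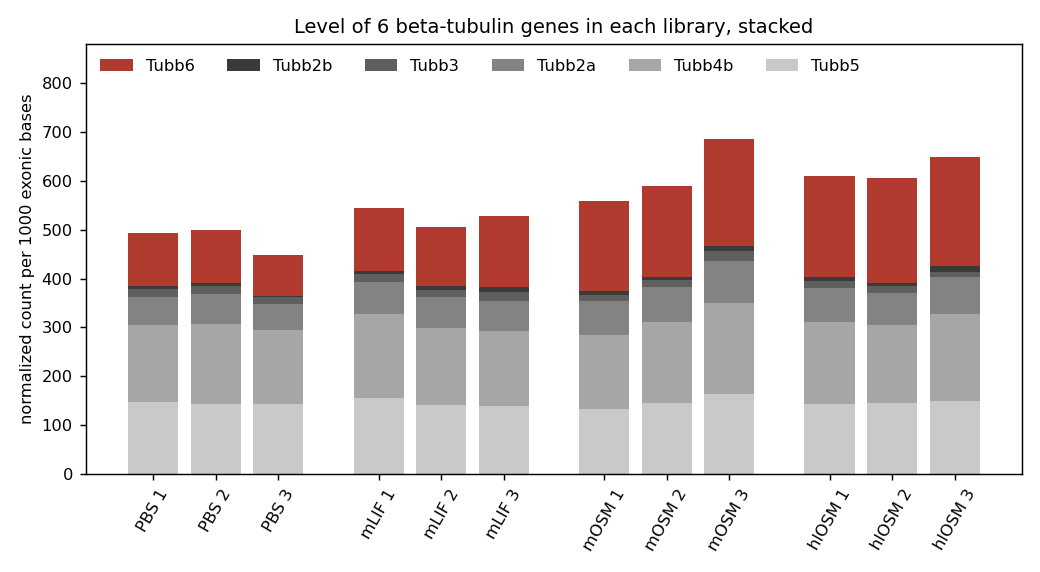
Level of 6 β-tubulin genes in each of the 12 libraries, as normalized count per 1000 exonic bases, stacked from 0 with Tubb6 on top in red. The red part averages 20.9% of the bar with PBS and 34.6% with hlOSM, while the parts of Tubb5 and Tubb4b keep about the same height.

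The α-tubulin Tuba1a (chromosome 15, 98949837 to 98953703, minus strand), known as the main α-tubulin of developing neurons, was near the lower limit of the test. It was at 18, 9 and 9 with PBS and 14, 22 and 17 with mLIF. With mOSM the values were 15, 28 and 20, and with hlOSM 18, 12 and 26, and every cytokine group overlapped PBS. The log2 fold change of 0.79 with mOSM (SE 0.30, adjusted p = 0.0494) passed the threshold in the fit reported and without PBS replicate 1 or mOSM replicate 1. It was lost under the replicate block (adjusted p = 0.0858) and without PBS replicate 2, PBS replicate 3, mOSM replicate 2 or mOSM replicate 3, as well as with either other pseudocount, either rescaling, no filter or the 6 libraries alone. With hlOSM the value was 0.60 (adjusted p = 0.118, passing without PBS replicate 1 or hlOSM replicate 2), and with mLIF it was 0.57 (adjusted p = 0.237). A predicted gene on the same strand, Gm49450, covers 26.2% of its exonic bases.

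Vim fell with both oncostatin M proteins. Vim (chromosome 2, 13573927 to 13582826, plus strand) was at 678, 693 and 794 with PBS and at 632, 631 and 630 with mLIF. It was at 486, 482 and 559 with mOSM and at 528, 516 and 441 with hlOSM. The ranges of PBS, mLIF and both oncostatin M groups did not overlap each other, while mOSM and hlOSM did. The log2 fold change was −0.50 (SE 0.07, adjusted p = 1.48e-05) with mOSM and −0.54 (SE 0.07, adjusted p = 3.85e-06) under hlOSM, which is 0.706 and 0.686 of the PBS level. With mLIF it was −0.19 and did not pass (adjusted p = 0.103), except when only the 6 libraries compared were fitted (adjusted p = 0.0269). Against mLIF, Vim was lower by −0.31 (SE 0.07, adjusted p = 0.00552) with mOSM and −0.35 (SE 0.07, adjusted p = 0.0015) with hlOSM, and between hlOSM and mOSM the interval ran from −0.19 to 0.11.

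Desmin did not pass with any cytokine, its log2 fold changes being −0.08 for mLIF, −0.07 for mOSM and −0.03 for hlOSM (adjusted p = 0.426, 0.438 and 0.707). In summed Vim and Des levels per 1000 exonic bases, Vim held 27.0% ± 1.61 (SD, n = 3) with PBS, 25.6% ± 1.04 (SD, n = 3) with mLIF, 21.5% ± 0.766 (SD, n = 3) with mOSM and 20.6% ± 1.62 (SD, n = 3) with hlOSM. The PBS and mLIF ranges of this share overlapped, and both oncostatin M groups lay below PBS.

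Markers of other cell types moved in the same libraries, where mOSM raised 15.4% and lowered 15.8% of all tested genes. With hlOSM these shares were 18.2% and 19.8%. The summed smooth muscle and pericyte markers, 1953 to 2315 with PBS, were 1772 to 1819 with mLIF, 1406 to 1495 with mOSM and 1270 to 1351 with hlOSM, and 7 and 8 of the 9 tested markers were lowered with mOSM and hlOSM. The endothelial markers rose instead, from 1618 to 1703 with PBS to 2070 to 2436 with mOSM and 2113 to 2274 with hlOSM, with 9 of 12 raised by either protein. Of the 12 fibroblast markers, mOSM raised 4 and lowered 5, with a sum of 2653 to 3086, and hlOSM raised 5 and lowered 7, with a sum of 2512 to 2742, both overlapping the 2550 to 2818 of PBS. The leukocyte and macrophage markers summed to 412 to 459 with mOSM and 383 to 454 with hlOSM, with 1 of 7 tested raised by each and 1 lowered by mOSM and 2 by hlOSM (0 and 1 lowered under the replicate block). The part of these cell types in the fall of Vim, or in changes of the other genes described, was not tested. In bulk RNA fewer cells of a type and less RNA per cell cannot be told apart. Cardiomyocyte markers themselves summed to 40442 to 45468 with mOSM and 41253 to 44026 with hlOSM, and 11 of 15 were lowered by each.

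Of the cytoplasmic actins, Actg1 fell with mOSM and Actb passed in no comparison of the fit reported. Actb (chromosome 5, 142903115 to 142906754, minus strand), β-actin, was at 821, 801 and 848 with PBS and 866, 783 and 767 with mLIF. The mOSM libraries gave 688, 771 and 790 and the hlOSM libraries 737, 737 and 787. All libraries of both oncostatin M groups lay below the PBS libraries, but the log2 fold changes of −0.14 (adjusted p = 0.0895) and −0.13 (adjusted p = 0.101) did not pass. With hlOSM the 95% confidence interval ran from −0.25 to −0.0023. The mOSM value passed without mOSM replicate 3.

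Actg1 (chromosome 11, 120345690 to 120348542, minus strand), γ-actin, was at 116, 116 and 119 with PBS and 110, 111 and 111 with mLIF. With mOSM the values were 80, 92 and 92, and with hlOSM 107, 91 and 102. Each cytokine group lay below PBS, but with mLIF the log2 fold change was −0.08 and did not pass (adjusted p = 0.629). Actg1 fell with mOSM, by a log2 fold change of −0.41 (SE 0.09, adjusted p = 0.00156), and was at −0.23 with hlOSM (SE 0.09, adjusted p = 0.0555), which passed only after quantile rescaling or without hlOSM replicate 1. The difference between hlOSM and mOSM was 0.18 with an interval from −0.0088 to 0.37 (adjusted p = 0.681), so the 2 proteins were not shown to differ here. Against mLIF the value with mOSM was −0.33 (SE 0.09, adjusted p = 0.0193), a call lost under the replicate block (adjusted p = 0.0649) and without any 1 mLIF library or mOSM replicate 1. Per 1000 exonic bases Actg1 held 12.5% ± 0.182 (SD, n = 3) of the 2 actins with PBS, 10.6% ± 0.138 (SD, n = 3) with mOSM and 11.8% ± 0.874 (SD, n = 3) with hlOSM.

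The muscle actins outside the 10 genes moved in both directions. Skeletal α-actin Acta1, a fetal actin of the heart, rose with mLIF, mOSM and hlOSM by log2 fold changes of 0.27, 0.31 and 0.40 (adjusted p = 0.0241, 0.00322 and 0.00019). Cardiac α-actin Actc1 fell by −0.19 with mOSM and −0.19 with hlOSM (adjusted p = 0.0322 and 0.0269). Smooth muscle α-actin Acta2, also a marker of smooth muscle and activated fibroblasts, fell from 199, 200 and 278 with PBS to 76, 92 and 79 under mOSM and to 86, 90 and 68 under hlOSM, log2 fold changes of −1.43 and −1.45 (adjusted p = 2.07e-08 and 1.1e-08).

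Of the β-thymosins, Tmsb4x (X chromosome, 167207093 to 167209315, minus strand), the abundant actin monomer binder thymosin β4, fell with both oncostatin M proteins. It was at 115, 113 and 143 with PBS and 117, 102 and 98 with mLIF. The mOSM libraries gave 85, 90 and 88 and the hlOSM libraries 83, 90 and 88. The oncostatin M libraries lay close together and below every PBS and mLIF library. The log2 fold change was −0.48 (SE 0.10, adjusted p = 0.00094) with mOSM and −0.50 (SE 0.10, adjusted p = 0.000591) with hlOSM, and −0.22 with mLIF, which did not pass (adjusted p = 0.178). Differences from mLIF of −0.26 with mOSM and −0.27 with hlOSM did not pass (adjusted p = 0.106 and 0.0728).

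Tmsb10 (chromosome 6, 72957347 to 72958748, minus strand), the related thymosin β10, lay between 2 and 16 in all 12 libraries and passed in no comparison. Its groups overlapped throughout, and the 95% confidence interval with hlOSM ran from −0.79 to 1.05 on the log2 scale.

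In all, mOSM raised 4 of the 10 genes (Tubb6, Tubb2b, Tuba1a and Tubb2a) and lowered 3 (Vim, Tmsb4x and Actg1), where 15.4% of tested genes were raised and 15.8% lowered. With hlOSM, 3 were raised and 2 lowered, against 18.2% and 19.8% of tested genes. Under the replicate block 3 were raised with mOSM, without Tuba1a, and 2 with hlOSM, without Tubb2a. For the 10 genes the median log2 fold change with mLIF was 0.09, that of mOSM −0.03 and that of hlOSM 0.11, against 0.00040, −0.0043 and −0.0052 over all tested genes. With both proteins those raised were tubulins and those lowered were not. Compared with mLIF, 3 genes differed with mOSM (11.8% of tested genes did) and 2 with hlOSM (16.6%). The block left 2 of those with mOSM, without Actg1. Between hlOSM and mOSM limma called none of the 10, and none had an unadjusted p under 0.05, where 0.106% of all tested genes were called. All comparisons with PBS share the same 3 PBS libraries, and those with mLIF the same 3 mLIF libraries.

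**Figure D4:**
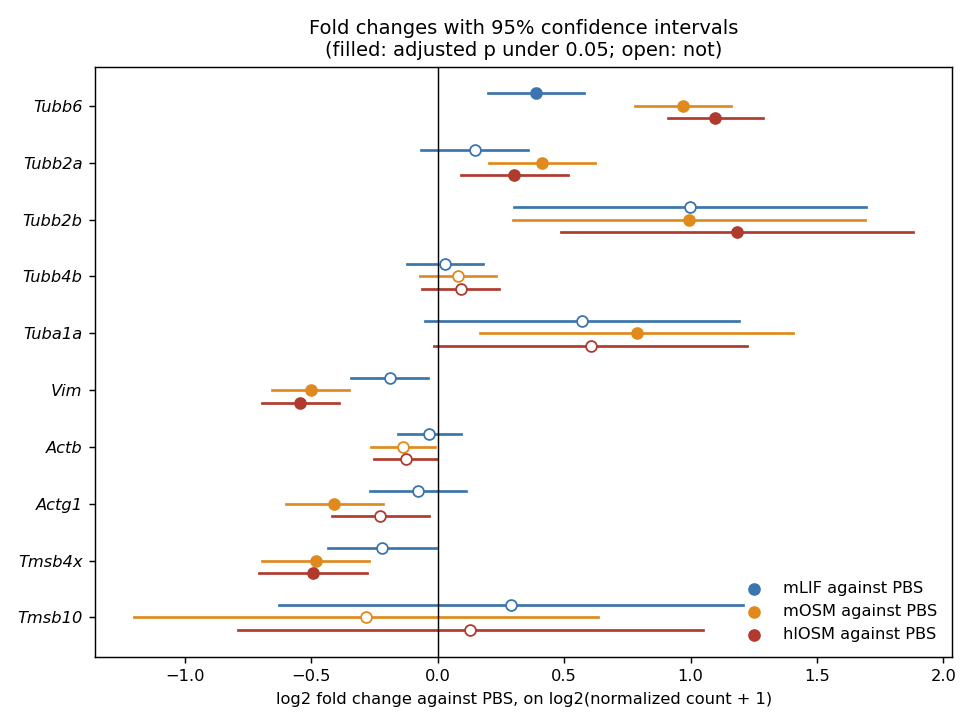
Log2 fold change of each gene with each cytokine against PBS, with the 95% confidence interval as a line, filled where the adjusted p is under 0.05. The Tubb6 points rise from 0.39 with mLIF to 1.10 with hlOSM, Vim and Tmsb4x stand near −0.5 with both oncostatin M proteins, and the intervals of Tmsb10, Tuba1a and Tubb2b are wide.

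The other genes of the tubulin pathway moved in both directions. Of 10 other tubulins tested, mOSM and hlOSM each raised 2 and lowered 1, and mLIF lowered 1, the median being 0.02 for hlOSM on the log2 scale. Of all tested genes, mOSM raised 15.4% and lowered 15.8%, hlOSM raised 18.2% and lowered 19.8%, and mLIF lowered 4.44%. Raised were the α-tubulins Tuba1c (0.51 and 0.46, adjusted p = 0.00664 and 0.0107) and Tuba4a (0.22 and 0.33, adjusted p = 0.028 and 0.00139), while Tuba1b did not pass (−0.06 and −0.07). Tuba1c shares windows with Tuba1a and Tuba1b, and 37.3% of the exonic bases of Tuba4a lie opposite Stk16 on the other strand. Tuba8, an α-tubulin of muscle and testis, fell from 162, 160 and 197 with PBS to 97, 98 and 95 with hlOSM (−0.83, adjusted p = 5.73e-07).

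Of 30 genes of tubulin folding and microtubule binding, 2 were raised and 10 lowered with mOSM, and 4 and 14 with hlOSM. The median was −0.13 with hlOSM, and the replicate block left 1 and 9, and 3 and 13. Over all tested genes, 15.4% were raised and 15.8% lowered with mOSM, and 18.2% and 19.8% with hlOSM. The microtubule-associated Map1a (−0.62 and −0.77 with mOSM and hlOSM) and the plus-end binder Clasp1 (−0.42 and −0.60) fell, and Map1b (0.38 and 0.48) and Ttc5, which takes part in the control of tubulin mRNA by free tubulin, (0.35 and 0.57, the former lost under the block with adjusted p = 0.0948) rose. Of 14 tubulin modifying enzymes, mOSM raised 2 and lowered 2 (1 and 2 under the replicate block), and hlOSM raised 3 and lowered 1. With hlOSM the α-tubulin acetyltransferase Atat1 (0.53, adjusted p = 0.00124) and the deacetylase Hdac6 (0.35, adjusted p = 0.0028) rose. The deglutamylase Agtpbp1 (−0.23, adjusted p = 0.00193) fell. Of 15 genes of the cytosolic chaperonin that folds actin and tubulin, with its cofactors, 2 were raised by either oncostatin M protein, Cct4 (0.22 and 0.29) and Cct3 (0.25 and 0.22).

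Among 8 other intermediate filament genes tested, hlOSM raised 3 and lowered 1, against 18.2% and 19.8% of all tested genes. Nestin (Nes), which pairs with vimentin or desmin in growing and regenerating cells, rose from 408, 483 and 267 with PBS to 732, 622 and 1063 with mOSM and 807, 758 and 924 with hlOSM (1.07 and 1.14, adjusted p = 1.85e-05 and 5.83e-06). The nuclear lamin Lmnb2 rose (0.63 and 0.69) and the desmin-binding syncoilin gene Sync fell (−0.31 and −0.46).

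Genes acting on actin also moved in both directions. Among all tested genes mOSM raised 15.4% and lowered 15.8%, and hlOSM raised 18.2% and lowered 19.8%. Of 35 genes of actin monomer binding and nucleation, mOSM raised 4 and lowered 7, and hlOSM raised 8 and lowered 8, with a median of 0.06 with hlOSM. Under the replicate block mOSM raised 3 and lowered 6, and hlOSM raised 5 and lowered 7. The cortical actin binder Cttn (0.42 and 0.41) and the capping protein gene Capza1 (0.28 and 0.37, the former lost under the block with adjusted p = 0.102) rose. The severing protein gelsolin, Gsn, (−0.65 and −0.77), also among the fibroblast markers, and the formin Fhod3 (−0.56 and −0.62) fell. Of 30 nonmuscle actin crosslinkers and motors, mOSM raised 10 and lowered 11, and hlOSM raised 11 and lowered 9. Anxa2 (1.01 and 1.12) and its partner S100a10 (0.94 and 1.06), which together bind membranes and actin, rose, while Anxa1 (−2.24 and −2.06) and the calponin Cnn2 (−0.59 and −0.93) fell.

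Of 22 genes of SRF, the MRTFs and their known targets and partners, mOSM raised 4 and lowered 7. With hlOSM 6 were raised and 10 lowered, with a median of −0.08. The shares over all tested genes were 15.4% raised and 15.8% lowered with mOSM, and 18.2% and 19.8% with hlOSM. Srf itself (−0.27, adjusted p = 0.0193) and Mrtfb (−0.26, adjusted p = 0.0252) fell with hlOSM, with mOSM they were at −0.16 and −0.21 and did not pass, and Mrtfa passed with neither. The matricellular gene Ccn2 (−0.75 and −0.79) and the LIM protein gene Fhl2 (−0.56 and −0.56) fell, and the cofilin phosphatase Ssh1 (1.08 and 1.18) and Fhl1 (0.41 and 0.50) rose.

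**Figure D5:**
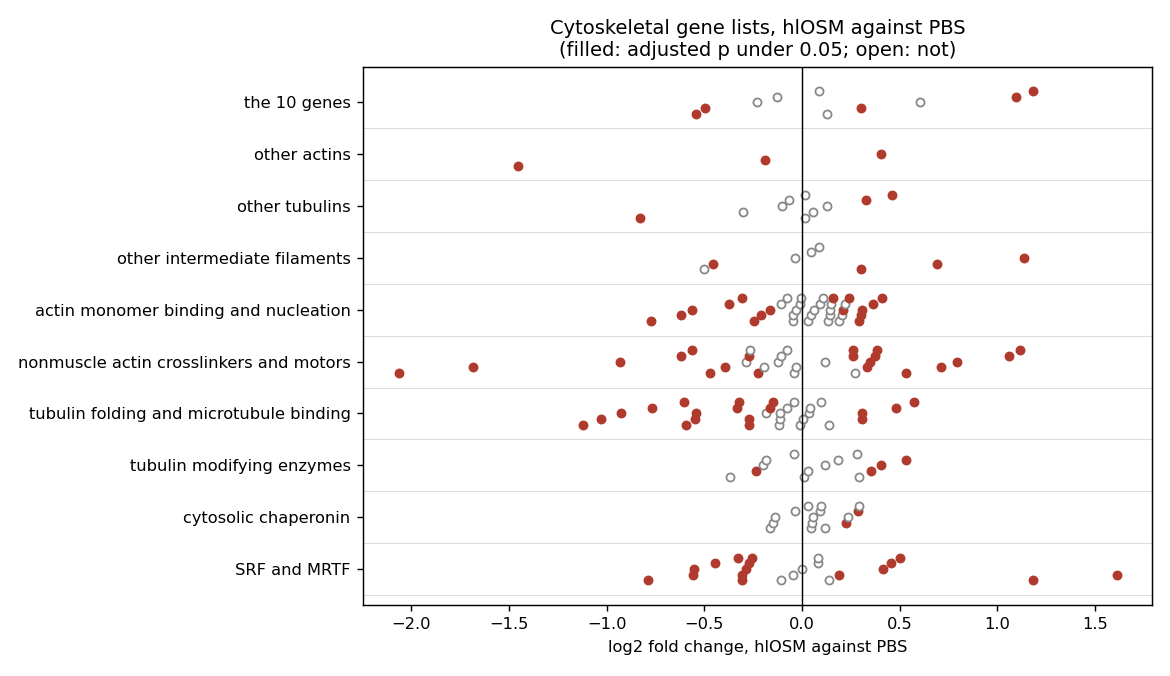
Log2 fold change with hlOSM against PBS of every tested gene of the 10 genes described and of 9 other cytoskeletal lists, 1 point per gene, filled where the adjusted p is under 0.05 and spread vertically only to part the points. Filled points stand on both sides of 0 in each list except the chaperonin, where 2 genes are raised and none is lowered.

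Because the 10 genes moved in opposite directions, their mean standardized profile over the 12 libraries resembled few of them (Pearson r of single genes with it from −0.041 for Vim to 0.713 for Tubb4b). The genes most like that mean were Msantd4 (r = 0.937), Eif1 (0.901), Gcsh (0.895), Pkig (0.887) and Ssr3 (0.882). The profile of Tubb6 alone, chosen for comparison after its values were seen, was most like those of Als2cl (0.991), Tor2a (0.991), Ptk2b (0.989), Bcr (0.988) and Thbd (0.988), among 8669 genes. That of Vim was most like Pde3a (0.988), Cald1 (0.987), Zc3h6 (0.986), Efcab2 (0.981) and Peli2 (0.979). These r describe 12 libraries that fall into 4 conditions of 3, which all of these genes share.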

How the data were processed

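Expression was measured by RNA sequencing of 12 libraries, 3 for each of PBS, mLIF, mOSM and hlOSM. The values deposited by the authors are scores on a normalized count scale. To make them, the authors aligned trimmed reads to mm10 (STAR 2.7.7a), counted reads touching exons per gene (featureCounts 1.6.5) without those that hit several genes or regions, and normalized and rounded the counts. The method of normalization is not given in the sources used here. The library kit is stranded, and the strand setting of the counting is not given in the sources used here. Depth per library is unknown on this scale, and no counting error is given with the values. Conditions and replicate numbers came from the sample titles, and the table held 0 other columns of per-sample values.

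For the tests, limma 3.58.1 (R 4.3.3) fitted all 12 libraries together on log2(normalized count + 1), with eBayes and its trend option, over 13184 genes that reached 10 in 3 or more libraries. Calls needed a Benjamini-Hochberg adjusted p under 0.05 over all tested genes. The 10 genes, the gene lists, the 6 β-tubulins summed and the comparisons were chosen with earlier results of these data known. Named genes are the 10, a fixed set of actins, tubulins, desmin, SRF and MRTFs, and from each cytoskeletal list up to 2 largest rises and 2 largest falls with hlOSM among genes called with both mOSM and hlOSM and with a mean of at least 50, plus the 5 genes most like the mean profile. Alternatives were other pseudocounts, filters, rescalings, fits of 6 libraries, a replicate block, a minimum fold and each library left out. Lengths and shared 75-base windows came from GENCODE transcripts of mm10, and promoters from RefSeq, GRCm38.p6.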

Additional observations from a re-analysis of the deposited data

How the results depend on the processing

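Of the 18 calls of the 10 genes over 6 comparisons, 12 passed under every alternative that gave a value, other than a minimum fold, 6 were lost under at least 1 of these, and 0 changed sign. A minimum of 1.5-fold kept 6 of the 18 calls, and 3 of these passed under every other alternative too. Of the 42 values not called, 5 passed under at least 1 alternative and 18 changed sign under at least 1. Fitted on only the 6 libraries compared, 2 genes (Tubb6 and Vim) were called with mLIF against PBS instead of 1. With a minimum of 1.5-fold, 0 genes were called with mLIF against PBS, 3 with mOSM against PBS, 2 with hlOSM against PBS, 0 with mOSM against mLIF and 1 with hlOSM against mLIF, because the smaller changes fall below it. Leaving out 1 library at a time gave between 0 and 2 genes with mLIF against PBS, 0 of them without PBS replicate 3 or mLIF replicate 3, and between 3 and 6 with hlOSM against PBS, 3 of them without PBS replicate 3 or hlOSM replicate 3. With the replicate number as a block, 1 gene was called with mLIF against PBS, 6 with mOSM against PBS, 4 with hlOSM against PBS and 2 with mOSM against mLIF, against 1, 7, 5 and 3 without it. Same-numbered libraries are not stated to come from the same cells, so that the fit reported has no block. Their deviations from the condition means gave r from −0.406 to −0.151 in the 18 pairs. These r are no reason to leave out a block and do not show that the libraries are unpaired. A replicate effect subtracted before deposit would leave such values. The cause of the lost calls was not tested. Rescaling by the trimmed mean of M-values used factors between 0.985 and 1.03. Levels per position found once in the genome were planned and not run, since no genome sequence was used here, and windows found in no other annotated gene, chosen after seeing the data, took their place. The low normalized counts of Tubb2b, Tuba1a and Tmsb10 limit what can be seen for them.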
